A study of Mus musculus with 20 samples.

Results

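The 10 genes described here encode proteins that T cells make, or need, while they mature: Rag1, Rag2, Ccr9, Ccl25, Tcf7, Thy1, Lck, Cd3d, Cd3e and Cd247. They were taken by name from the 547 endogenous probes of the NanoString mouse Immunology panel, and all 10 were on it. The genes were selected on their counts in these same lungs, in which they stood highest in replicate 3 of control diet + HDE. Their levels in that lung, and every contrast that holds it, are therefore given as a description, with no test.

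Left lung RNA came from 20 male wildtype C57BL/6J mice, 5 to 8 weeks old on purchase. For 4 weeks they ate either a DHA diet, which supplies the omega-3 fatty acid docosahexaenoic acid, or a matched control diet without DHA, in both of which the soybean oil of the base diet had been replaced. Each mouse then received 50 µL of 12.5% hog dust extract (HDE, made from dust that had settled in swine barns) or saline through the nose, and lungs were collected after 5 h. The groups were DHA diet + HDE (n = 7), DHA diet + saline (n = 3), control diet + HDE (n = 6) and control diet + saline (n = 4). The airways had been lavaged before the left lung was taken, so cells in the lavage fluid were not measured, and the tissue is whole lung with no cells sorted.

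Developing T cells, called thymocytes, cut and join the segments of their antigen receptor genes in the thymus. The recombinase of Rag1 and Rag2 makes those cuts, the transcription factor TCF-1 of Tcf7 holds the T cell program, and the chemokine CCL25 of thymic epithelium draws cells that carry its receptor CCR9. The finished receptor signals through the CD3 chains and CD247 and through the kinase LCK. Thy1 marks thymocytes and mature T cells of the mouse. Mature T cells of a healthy lung keep Tcf7, Thy1, Lck and the CD3 chains, while expression of Rag1 and Rag2 is known from lymphocyte precursors of the thymus and bone marrow.

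Promoter sequence is shown for the genes that lie side by side in the mouse genome and for Lck, which has alternative starts. In the RefSeq table of assembly GRCm38.p6, Rag1 and Rag2 are neighbors on chromosome 2, and Cd3d lies between Cd3g and Cd3e on chromosome 9. Promoter entries were found for 9 of the 10 genes, Thy1 being the exception, with 12 entries in all since Ccl25, Tcf7 and Lck have several starts. The 150 bases before the annotated start are printed 5′ to 3′ along the gene's own strand. Capitals mark matches on either strand to short motifs of lymphoid transcription factors. These were the letters CAGNTG for the E-box that E proteins bind, TGTGGT for the RUNX factors, CTTTGA for the TCF/LEF factors, GGAAGT for the ETS factors and AGATAA for factors of the family that includes GATA3.
Rag1, chr2:101649533-101649682, minus strand: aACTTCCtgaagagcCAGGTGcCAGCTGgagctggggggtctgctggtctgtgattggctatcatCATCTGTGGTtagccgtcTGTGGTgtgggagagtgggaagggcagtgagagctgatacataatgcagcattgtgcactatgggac
Rag2, chr2:101624562-101624711, plus strand: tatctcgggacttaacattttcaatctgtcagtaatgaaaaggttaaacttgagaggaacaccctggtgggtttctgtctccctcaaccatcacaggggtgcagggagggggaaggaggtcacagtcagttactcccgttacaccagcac
Cd3d, chr9:44981636-44981785, plus strand: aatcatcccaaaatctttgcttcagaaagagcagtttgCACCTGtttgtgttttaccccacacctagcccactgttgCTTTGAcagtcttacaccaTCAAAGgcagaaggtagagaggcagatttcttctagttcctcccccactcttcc
Cd3e, chr9:45009612-45009761, minus strand: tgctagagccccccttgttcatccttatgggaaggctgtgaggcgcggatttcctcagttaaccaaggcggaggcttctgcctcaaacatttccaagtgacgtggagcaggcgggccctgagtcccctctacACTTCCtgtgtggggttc
Lck, upstream start, chr4:129573642-129573791, minus strand: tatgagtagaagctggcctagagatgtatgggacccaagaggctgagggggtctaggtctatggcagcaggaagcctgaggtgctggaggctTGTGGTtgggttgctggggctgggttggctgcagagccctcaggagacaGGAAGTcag
Lck, downstream start, chr4:129558373-129558522, minus strand: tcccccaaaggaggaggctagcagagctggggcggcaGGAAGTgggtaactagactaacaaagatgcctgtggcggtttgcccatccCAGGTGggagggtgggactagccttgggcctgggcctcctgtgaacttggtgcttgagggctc

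The Rag1 window held 3 E-box matches, 2 RUNX matches, 1 of which overlapped an E-box, and 1 ETS match, whereas the Rag2 window held no match to any of the motifs. Cd3d had 2 TCF/LEF matches in opposite orientation and 1 E-box, and its neighbor Cd3e had 1 ETS match. At Lck the upstream start had a RUNX and an ETS match and the downstream start an ETS match and an E-box. Over the 12 entries, 6 held an E-box, 6 an ETS match, 2 a RUNX match, 2 a TCF/LEF match and 0 a GATA match. Among 32851 promoter windows of the same length these shares were 30.09%, 13.59%, 8.399%, 7.93% and 5.647%, in the order E-box, ETS, RUNX, TCF/LEF and GATA. A match describes the letters of a window and is not a measured binding site. Each gene was counted by 1 probe, and that of Lck begins at base 1180 of its transcript, so transcripts from the alternative Lck starts were not told apart.

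Raw endogenous counts summed to 123536 to 684074 per lung. Counts were scaled per lane so that 4 housekeeping genes had the same geometric mean in every lane. They were Rpl19 and Eef1g, of translation, Ppia, of protein folding, and Oaz1, of polyamine control. The factors were 0.393 to 3.612, and these scaled counts are the unit below. The lane threshold, the mean plus 2 SD of the 8 negative control probes, lay at 16.6 to 40.9 raw counts and at 7.8 to 97.5 scaled counts, highest in replicate 2 of control diet + HDE. The sample titles carry 2 prefixes of a date and a serial number, shared by 10 lungs each and dated in different years. The lungs of the earlier date are called run 1 and those of the later date run 2. The summed scaled count of 10 genes of the immediate HDE response, among them Il1b and Cxcl1, was 7435.2 to 40904.7 in DHA diet + HDE lungs and 633.4 to 1437.3 in DHA diet + saline lungs. On the control diet it reached 20508.4 after HDE, against 722.9 to 1139 after saline, but replicate 6 of control diet + HDE had 672.5, which goes against its label. Results that hold that lung are given with and without it where it matters. Replicate 3 of control diet + HDE, although labelled lung, held thymic epithelial transcripts (Aire and Psmb11) above its threshold. Its summed count of 9 lung genes was the lowest of the 20 lungs, although not every one of these genes was low there. Whether its RNA came from lung alone was not tested, so its values are those of the library labelled lung.

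Rag1 and Rag2 were at or below the lane threshold in most lungs. Rag1 exceeded it in 5 of 20 lungs: replicates 2, 3 and 4 of control diet + HDE, replicate 1 of DHA diet + HDE and replicate 2 of control diet + saline. Scaled Rag1 counts in DHA diet + HDE lungs ran from 4.9 through a median of 15.4 to 50.6, and were 19.6, 34.9 and 5.2 in DHA diet + saline lungs. In control diet + HDE lungs replicate 3 had 5054.5, replicate 2 had 361.8, replicate 4 had 201.1 and the other lungs 12.8, 9.1 and 5.5, against 21.0, 66.2, 4.7 and 4.0 in control diet + saline lungs. Rag1 was thus high in some control diet + HDE lungs, and the other lungs of that group overlapped with the saline lungs. The raw Rag1 counts behind the high values were 3987, 136 and 313 in replicates 3, 2 and 4, against thresholds of 23.3, 36.7 and 16.6. In bulk RNA of this kind, fewer cells of a type cannot be told apart from less RNA per cell.

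Rag2, the partner of Rag1 in the recombinase, exceeded the threshold in 2 of 20 lungs, replicates 3 and 4 of control diet + HDE. Its scaled count was 465.3 in replicate 3, 25.1 in replicate 4 and 87.8 in replicate 2, the last from 33 raw counts, below the threshold of its lane. The others of control diet + HDE had 10.6, 13.1 and 8.6, against 28.6, 22.8, 10.2 and 4.0 in control diet + saline lungs. On the DHA diet Rag2 ranged from 8.4 through 15.4 to 47.0 after HDE, against 12.3, 22.6 and 3.6 after saline, with no lung above its threshold. Outside control diet + HDE, differences in Rag2 between lungs were thus not detectable at this depth.

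The chemokine gene Ccl25 and the receptor gene Ccr9 followed the same lung. Ccl25 stood at 1241.1 scaled counts in replicate 3 of control diet + HDE, 109.1 in replicate 2 and 83.5 in replicate 4. In the remaining control diet + HDE lungs it had 37.7, 35.2 and 37.3, against 58.6, 63.1, 38.5 and 32.8 in control diet + saline lungs. DHA diet + HDE lungs had 30.2 to 65.2 with a median of 44.8, against 60.1, 69.8 and 37.4 in DHA diet + saline lungs. The DHA diet groups therefore overlapped, and Ccl25 was above the lane threshold in 19 of 20 lungs.

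Ccr9 stood at 835.4 in replicate 3 of control diet + HDE and at 311.2 in replicate 2, whereas replicate 4 had 42.4, the other lungs of the group 40.7, 21.1 and 9.0, and the control diet + saline lungs 39.1, 47.6, 11.8 and 10.4. On the DHA diet it was 15.5 to 43.3 after HDE (median 37.2), against 39.2, 43.1 and 14.3 after saline. It passed the lane threshold in 10 of 20 lungs. In replicate 4, in which Rag1 was high, Ccr9 lay inside the range of the saline lungs of both runs together. It lay above the saline lungs of its own run 2, which had 11.8, 10.4 and 14.3. Among the 10 genes Ccr9 was thus the gene whose count in replicate 2 came nearest to that in replicate 3.

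Tcf7 and Thy1, which resting T cells also express, were measured in nearly every lung. Tcf7 was above the threshold in 20 of 20 lungs. It stood at 3052.7 in replicate 3 of control diet + HDE, 295.3 in replicate 2 and 274.9 in replicate 4, with 112.4, 172.0 and 115.2 in the others, against 183.4, 162.4, 222.1 and 248.1 in control diet + saline lungs. In DHA diet + HDE lungs it was 37.2 to 196.4 (median 119.0), against 145.9, 106.8 and 222.4 in DHA diet + saline lungs. The 3 control diet + HDE lungs named by number lay above every saline lung for Tcf7, and replicates 1 and 6 lay below every control diet + saline lung.

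Thy1 had 1811.6 scaled counts in replicate 3 of control diet + HDE, 247.4 in replicate 2, 135.5 in replicate 4 and 53.6, 65.4 and 49.9 in the others, against 72.1, 62.1, 86.3 and 97.9 in control diet + saline lungs. After HDE on the DHA diet it was 38.3 to 74.7 (median 65.2), and 74.8, 76.0 and 106.6 after saline. The highest DHA diet + HDE lung (74.7) and the lowest DHA diet + saline lung (74.8) were thus nearly equal, and the saline value of 76.0 was below the threshold of its lane. Without the filter Thy1 was not called between these groups (adjusted p = 0.422 by edgeR). Thy1 exceeded the lane threshold in 19 of 20 lungs.

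The receptor chains and their kinase were highest in the same lung. Lck stood at 3189.6 in replicate 3 of control diet + HDE, 577.2 in replicate 2, 212.6 in replicate 4 and 121.5, 81.5 and 61.3 in the others, against 99.2, 121.0, 83.2 and 64.1 in control diet + saline lungs. In DHA diet + HDE lungs it was 58.4 to 169.8 (median 131.8), against 117.7, 125.3 and 66.0 in DHA diet + saline lungs. Lck was above the threshold in 20 of 20 lungs, and the groups of the DHA diet overlapped.

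Cd3d, the delta chain of CD3, had 1455.4 scaled counts in replicate 3 of control diet + HDE, 276.6 in replicate 2, 111.8 in replicate 4 and 66.4, 51.3 and 35.4 in the others, against 60.1, 70.3, 45.5 and 62.1 in control diet + saline lungs. On the DHA diet it was 41.2 to 101.9 after HDE (median 75.9) and 65, 119.1 and 62.5 after saline. Its neighbor Cd3e, the epsilon chain, stood at 607.2 in replicate 3 of control diet + HDE, 109.1 in replicate 2 and 52.7 in replicate 4, with 27.1 to 73.9 in the 17 lungs other than replicates 2, 3 and 4 of that group. Cd247, the zeta chain that carries most of the signaling motifs of the receptor, had 770.8 in replicate 3, 239.4 in replicate 2 and 66.8 in replicate 4, with 24.4 to 141.7 in those 17 lungs. Replicate 4 thus lay within the range of the 17 lungs for Rag2, Ccr9, Cd3d, Cd3e and Cd247 and above them for Rag1, Ccl25, Tcf7, Thy1 and Lck. That range mixes lungs of both runs, between which the background differed. Among the run 2 lungs, replicate 4 was second to replicate 3 for each of these genes. The next run 2 lung had 37.2 for Ccr9, against 42.4 in replicate 4, and 59.8 for Cd247, against 66.8.

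**Figure D1:**
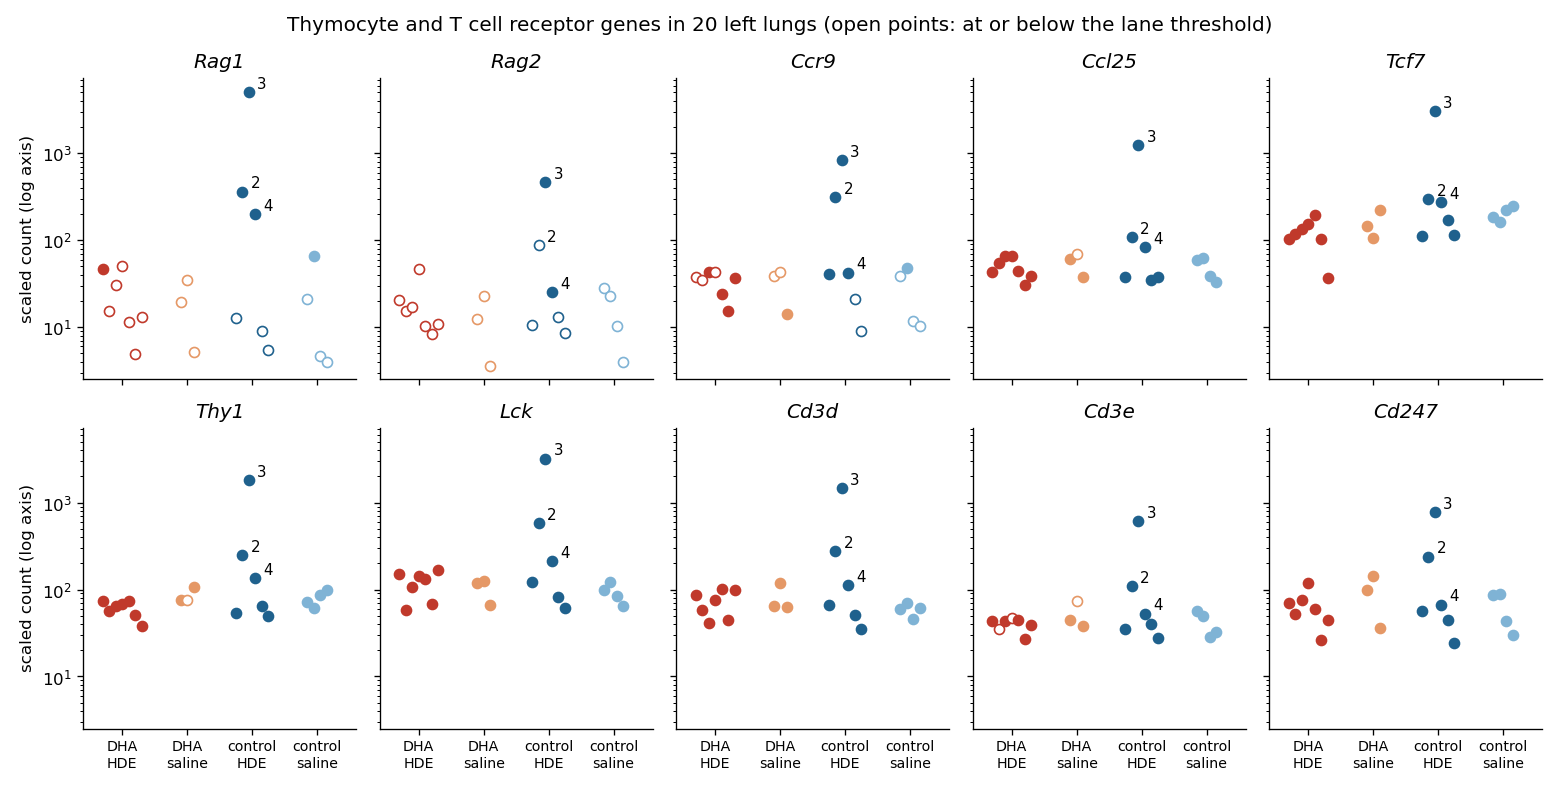
Scaled counts (log axis) of the 10 genes in each of 20 left lungs, by diet and exposure, with replicates 2, 3 and 4 of control diet + HDE numbered and open points at or below the lane threshold. Replicate 3 was the highest lung and replicate 2 the next for every gene. Replicate 4 stood out for Rag1 (201.1). For Ccr9 (42.4) replicate 4 lay within the range of both runs together but was second to replicate 3 among the run 2 lungs.

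Replicate 3 of control diet + HDE was the highest and replicate 2 the next highest of 20 lungs for each of the 10 genes. Over the next highest lung, replicate 3 was 13.97-fold higher for Rag1, 11.38-fold for Ccl25, 10.34-fold for Tcf7 and 7.323-fold for Thy1. The folds of Cd3e, Lck and Cd3d lay between 5.261 and 5.568, and those of Cd247 and Ccr9 were 3.22 and 2.684. Rag2 is given no fold, since its count in replicate 2 was below the threshold of that lane. The gap to the next lung thus varied among the other 9 genes, and it was smallest for the homing receptor and the zeta chain.

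In scaled counts the make-up of the excess differed between the 3 lungs. The excess of a lung is its scaled count minus the median of the 17 lungs other than replicates 2, 3 and 4 of control diet + HDE. In replicate 2 the excess of Rag1 was 6.915% of that in replicate 3, of Ccl25 5.519% and of Tcf7 5.138%, but of Ccr9 34.32% and of Cd247 25.52%. In replicate 4 it was 3.727% for Rag1, 4.439% for Tcf7 and 3.386% for Ccl25, but 0.646% for Ccr9 and 1.328% for Cd247. Ccr9 and Cd247 thus had the largest shares in replicate 2 and the smallest in replicate 4. The median of the 17 lungs pools both runs. Over those lungs Ccr9 and Cd247 correlated at 0.79 and 0.88 with the log2 scaling factor. That factor was 2.66 in replicate 2 and 0.642 in replicate 4. The part of lane scaling and run in these shares was not tested. As the titles number the samples, replicates 3 and 4 were samples 3 and 4 of run 2, and replicate 2 was in run 1. The samples numbered 5 and 2 of run 2 were replicate 5 of control diet + HDE and replicate 4 of control diet + saline, with 9.1 and 4.0 scaled counts of Rag1. Replicate 2 had the highest scaled threshold, 97.5, so that its values for Rag2 (87.8), Ccl25 (109.1) and Cd3e (109.1) lay near the background of its lane.

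**Figure D2:**
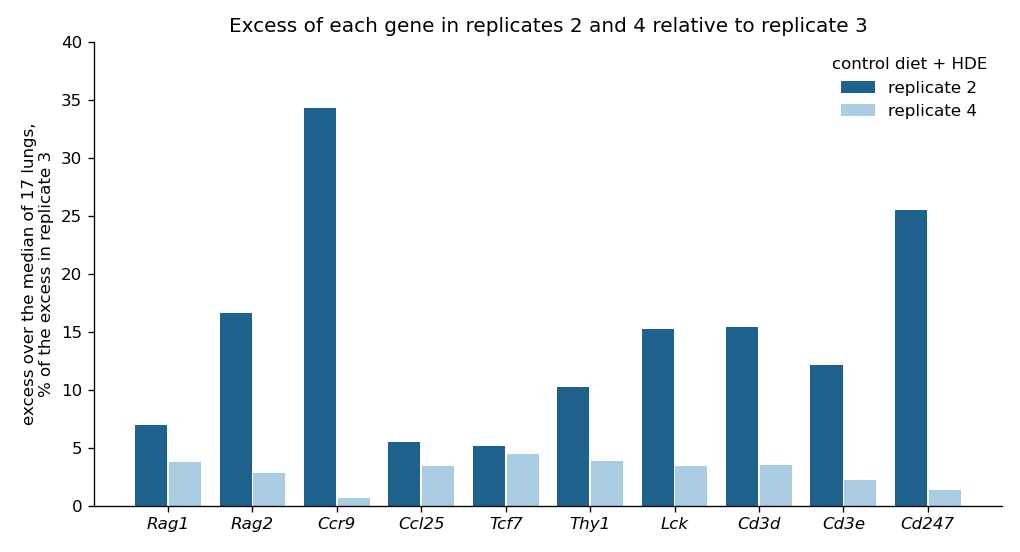
Excess of each gene over the median of 17 lungs of both runs in replicates 2 and 4 of control diet + HDE, in percent of the excess in replicate 3 (linear axis from 0). The Rag2 bar of replicate 2 rests on a count below the lane threshold. In replicate 2 the bars span 5.138% (Tcf7) to 34.32% (Ccr9), in replicate 4 they span 0.646% (Ccr9) to 4.439% (Tcf7).

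Other T cell genes were high in replicate 3 of control diet + HDE as well. Of the 547 genes, 74 (13.53%) were highest in that lung and 36 (6.581%) exceeded the next lung more than 2-fold, the 10 genes among them. In each of the other 19 lungs the number of genes more than 2-fold above the next lung was 0 to 3. Of 18 measured genes of T cell receptor signaling and coreceptors, 14 were highest there and 9 by more than 2-fold. Cd4, the coreceptor of helper T cells, had 1520 scaled counts, against 308.6 in the next lung, and Cd8b1, a chain of the coreceptor of cytotoxic T cells, had 692.2 against 117. Sh2d1a, the adaptor SAP, had 625, and the next lung 79.8 from 30 raw counts, below its threshold of 36.7. The most abundant genes of that list, Ptprc, Cd2, Fyn and Lcp2, showed smaller gaps or none: the pan-leukocyte phosphatase gene Ptprc was 1.511-fold above the next lung and the adhesion gene Cd2 2.116-fold, and Lcp2 was highest in another lung.

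Among 18 regulators of T cell development, 11 were highest in replicate 3 and 6 by more than 2-fold. Ikzf1, which encodes the lymphoid factor Ikaros, stood at 926.7 against 220.8 in the next lung, and Lef1, a factor related to TCF-1, at 348.6 against 76, the last again below the threshold of its lane. Among the most abundant of that list, Ets1 was 1.159-fold above the next lung, while Runx1, Cd24a and Notch1 were highest elsewhere. Of 16 genes of mature and effector T cells, 8 were highest there, 4 by more than 2-fold. Foxp3, Tbx21, Ifng and Il2, genes of regulatory and effector cells, had 27.9, 27.9, 11.4 and 6.3 scaled counts in replicate 3, below the scaled threshold of its lane, 29.5.

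Transcripts of thymic epithelium were above the threshold in that lung. Aire, which drives expression of tissue antigens in medullary epithelium of the thymus, had 71 raw counts there, and Psmb11, a proteasome subunit of cortical epithelium, 61 raw counts, against a threshold of 23.3. Neither gene exceeded the lane threshold in any of the other 19 lungs. Their scaled counts were 90 and 77.3, against 42.6 and 28.7 in the next lung, values that came from below the threshold. Of the other 4 measured genes of the thymic stroma list, Cxcl12, Ccl19, Il7 and Tslp, which are made outside the thymus too, 0 were highest in replicate 3. Il7, a survival cytokine of lymphocytes, was second there, at 143.3 against 146.3 in replicate 2 and 3.65-fold over the median of the other 19 lungs, and the chemokine gene Cxcl12 was second too, at 1.545-fold over that median.

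Few markers of other cell types were highest in replicate 3, but the sums of the lymph node and B cell lists were above their medians. Of 10 B cell genes 1 was highest in replicate 3 (Cd22, 138.2 against 127.7 in the next lung), of 10 NK cell genes 0, of 5 genes of lymph nodes and lymphoid follicles 0, of 9 genes of lung endothelium, epithelium and alveolar macrophages 0, and of the 10 genes of the HDE response 0. The lymph node list summed to 1831.9 scaled counts, which ranked 3 of 20 and was 2.009-fold the median of the other 19 lungs. The sum of the 10 genes was 29.67-fold that median. It was 3.976-fold for T cell receptor signaling and coreceptors and 3.489-fold for mature and effector T cells. For the regulators of T cell development it was 2.019-fold and for thymic stroma 1.94-fold, and each of these other sums ranked 1 of 20. The lymph node list ranged from 853.8 to 1939.8 in DHA diet + HDE lungs and 569.7 to 649.8 in DHA diet + saline lungs. It ranged from 445.7 to 1602 in the other control diet + HDE lungs and 476.9 to 633.9 in control diet + saline lungs, so the sum of replicate 3 lay within the range of HDE lungs. The B cell list ranked 5 of 20 at 1.263-fold, with Pax5, a factor of B cell identity, second of 20 at 2.137-fold, and the NK cell list ranked 11 at 0.909-fold. The summed scaled count of the 9 lung genes, all above the lane threshold, was lowest of all 20 lungs in replicate 3, at 11332.4, against 12376.9 to 21724.3 in the group of control diet + HDE without it. The sum ranged from 13119.4 to 20438.2 in DHA diet + HDE lungs, 15511 to 18440.7 in DHA diet + saline lungs and 17341.6 to 21599.2 in control diet + saline lungs. The part of these shifts in the levels of the 10 genes was not tested. Summed over the HDE response, replicate 3 had 10400.6 scaled counts and ranked the eleventh of 20.

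**Figure D3:**
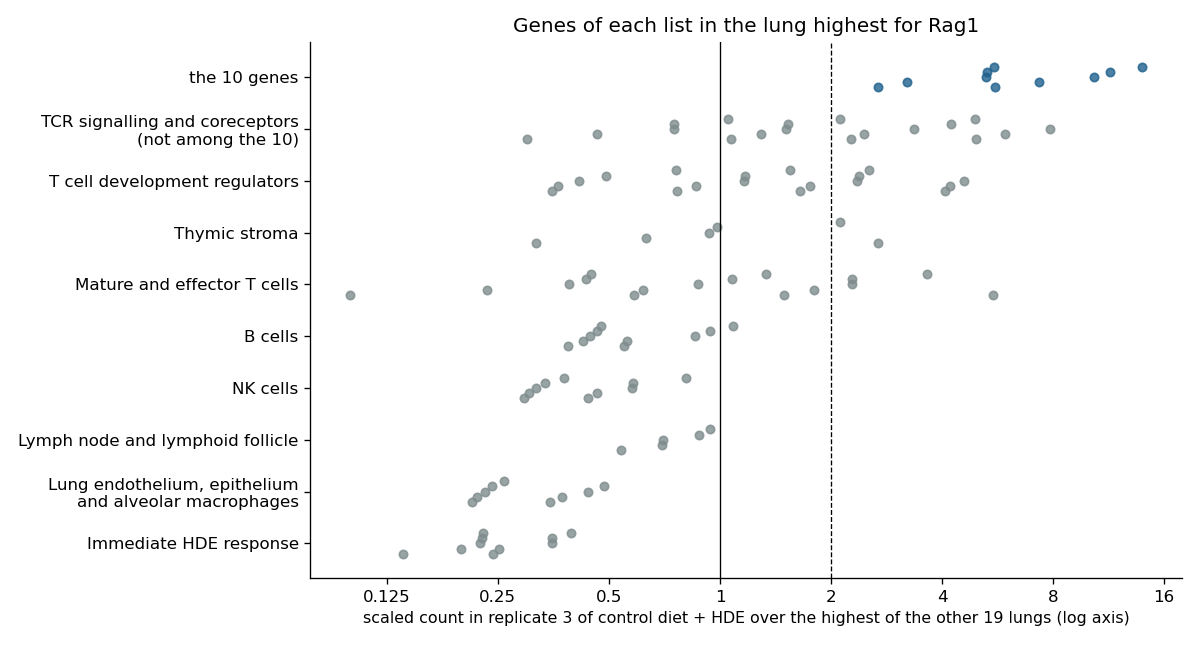
Scaled count in replicate 3 of control diet + HDE over the highest of the other 19 lungs (log axis), 1 point per gene, for the 10 genes and 9 gene lists, with lines at equal counts and at 2-fold. The 10 genes lie at 2.684-fold to 13.97-fold, and all genes of the NK cell, lymph node, lung and HDE response lists lie below the line of equal counts.

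The genes were compared with one another across lungs. Pairwise Pearson correlations of log2(scaled count + 1) over 20 lungs lay between 0.61 and 0.97 (median 0.90 over 45 pairs), between 0.08 and 0.90 (median 0.77) without replicate 3 of control diet + HDE, and between -0.43 and 0.90 (median 0.57) over the 17 lungs. Lanes share depth and background, and over the 17 lungs the correlation with the log2 scaling factor was 0.88 for Rag2 and Cd247, 0.81 for Ccl25, 0.80 for Rag1, 0.79 for Ccr9, 0.71 for Cd3e, 0.62 for Lck and 0.39 for Cd3d, but -0.06 for Thy1 and -0.18 for Tcf7. Most of the genes thus read higher in lanes with few counts, and Tcf7 and Thy1 did not. In the same 17 lungs Tcf7 and Thy1 correlated at 0.83 and Tcf7 and Lck at -0.43.

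The saline lungs differed by run in the same way. In run 1 (4 saline lungs) Ccr9 was 39.1 to 47.6 and in run 2 (3 saline lungs) 10.4 to 14.3, while the scaled threshold was 37.0 to 84.0 in run 1 and 7.8 to 20.2 in run 2. Tcf7 went the other way, with 106.8 to 183.4 in run 1 and 222.1 to 248.1 in run 2, and so did Thy1, with 62.1 to 76.0 in run 1 and 86.3 to 106.6 in run 2. The runs did not overlap among saline lungs for 9 of the 10 genes, Cd3d being the exception, nor for 53.7% of all 547 genes.

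By likeness to the mean standardized level of the 10 genes, among genes with a mean of at least 82 scaled counts, Cd4 (r = 0.95), Ikzf3 (0.93), Ikzf1 (0.90), Ikzf2 (0.87), Ptpn22 (0.82) and Arhgdib (0.80) came nearest over 20 lungs. Without replicate 3 of control diet + HDE the nearest over 19 lungs were Ube2l3 (0.80), Ikbkg (0.78), Lcp2 (0.74), H2-Ob (0.72), Traf4 (0.72) and Tlr3 (0.71), with 0 genes in common. Over the 19 lungs the mean standardized level itself correlated at 0.68 with the log2 scaling factor, and at 0.44 over the 20.

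The comparison of HDE with saline on the DHA diet does not hold replicate 3 of control diet + HDE, although counts of all groups were in view when the genes were selected. Here the 10 genes showed no change that passed the test. In edgeR's quasi-likelihood test 30.8% of 351 genes were higher and 1.42% lower after HDE (adjusted p under 0.05), and 2 of the 10 genes, Tcf7 and Lck, had the mean of 82 scaled counts needed to be tested. Tcf7 averaged 120.7 ± 49.03 scaled counts in DHA diet + HDE lungs (SD, n = 7) and 158.4 ± 58.81 in DHA diet + saline lungs (SD, n = 3), and the log2 fold change was -0.41 with a standard error of 0.40 (adjusted p = 0.494 by edgeR). Lck averaged 118.5 ± 42.23 in DHA diet + HDE lungs (SD, n = 7) and 103 ± 32.23 in DHA diet + saline lungs (SD, n = 3), and the log2 fold change was 0.21 with a standard error of 0.38 (adjusted p = 0.74 by edgeR). With no filter on low counts 0 of the 10 genes were called by edgeR, 0 of the 2 tested were called by limma or by DESeq2 on the housekeeping scale, and 0 had an unadjusted p under 0.05 in the filtered test. With the size factors that DESeq2 estimates over all genes, which moved the median log2 fold change of all genes to -0.11 from 0.50, Tcf7 was called lower (-1.11, adjusted p = 0.00886 by DESeq2). With TMM scaling, which moved that median to 0.11, Tcf7 had -0.93 (standard error 0.40, adjusted p = 0.0839 by edgeR) and was not called. The size of the Tcf7 difference thus depended on the scale.

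Without the filter the log2 fold changes of the 10 genes on the DHA diet lay between -0.54 (standard error 0.46) for Cd247 and 0.54 (standard error 0.71) for Rag2, with Thy1 at -0.50 (standard error 0.34). Their median was -0.18, beside 0.21 over all 547 genes. In run 1 alone the log2 fold change was -0.01 for Tcf7 and -0.09 for Lck, and in run 2 alone, with 1 saline lung, -0.98 for Tcf7 and 0.89 for Lck. Of the 6 tested genes of T cell receptor signaling, 1 was called higher and 1 lower, beside 30.8% and 1.42% of all genes tested. Ptprc, which all leukocytes express, rose by 1.08 in log2 units (standard error 0.37, adjusted p = 0.0352 by edgeR) and Cd2, a receptor of T and NK cells, fell by 0.90 (standard error 0.30, adjusted p = 0.0312 by edgeR), and the median over the 6 was -0.04, beside 0.50 over all 351. Of 12 tested regulators of T cell development 0 passed, with a median of 0.22. Of the 2 tested genes of thymic stroma, Ccl19, a chemokine of lymphoid stroma, rose by 2.57 (standard error 0.58, adjusted p = 0.00318 by edgeR). The other, Cxcl12, had -0.21 (standard error 0.36, adjusted p = 0.73 by edgeR).

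The comparison of HDE with saline on the control diet holds the selected lung, and its values are a description. Over all mice 14.7% of 354 genes were called higher and 0.847% lower by edgeR. The log2 fold changes of the 9 of the 10 genes that passed the filter lay between 1.69 for Cd247 and 5.32 for Rag1 (standard error 2.10), and most of the 9 reached the filter through replicate 3 alone, since 4 passed without it. Without replicate 3 of control diet + HDE, edgeR called 12.5% of 337 genes higher and 0.297% lower. It called 0 of the 4 tested of the 10 genes, with 0 at an unadjusted p under 0.05. DESeq2 and limma also called 0 of the 4, with 1 at an unadjusted p under 0.05 by DESeq2 on the housekeeping scale. The values were 1.18 for Lck (standard error 0.61), 0.82 for Cd3d (standard error 0.54), 0.43 for Thy1 (standard error 0.475) and -0.08 for Tcf7 (standard error 0.34). Cd3d and Thy1 reached the filter only with replicate 2 in the fit, so their values are a description. With replicate 2 left out too, 2 of the genes were tested, Lck and Tcf7, with a median of 0.05. With no filter Rag1 had 2.29 (standard error 1.26) and Ccr9 1.60 (standard error 0.94), and the median of the 10 genes was 0.61, beside 0.27 over all 547 genes, with 9 of the 10 above 0 and 0 called or at an unadjusted p under 0.05 by edgeR. That count of signs is a description, since the genes are not independent and replicate 2, next highest for each, remained.

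Replicates 2 and 4 of control diet + HDE also weighed in these values, and so did replicate 6, in which the HDE response was low. Without replicates 3 and 6, a choice made after seeing the data, 44.7% of 347 genes were called higher and 2.02% lower. Of 5 of the genes tested there, 1 was called, Lck, at 1.41 (standard error 0.525). Replicates 2 and 4, both above every saline lung for Lck, remained, so this call is a description. Without replicates 2, 3 and 4, also chosen after seeing the data, Lck had -0.06 and Tcf7 -0.62. In run 1 alone, with replicates 1 and 2 of control diet + HDE, the log2 fold change of Rag1 was 2.01, and in run 2 alone, with replicates 3 to 6, it was 8.23 (standard error 3.57).

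**Figure D4:**
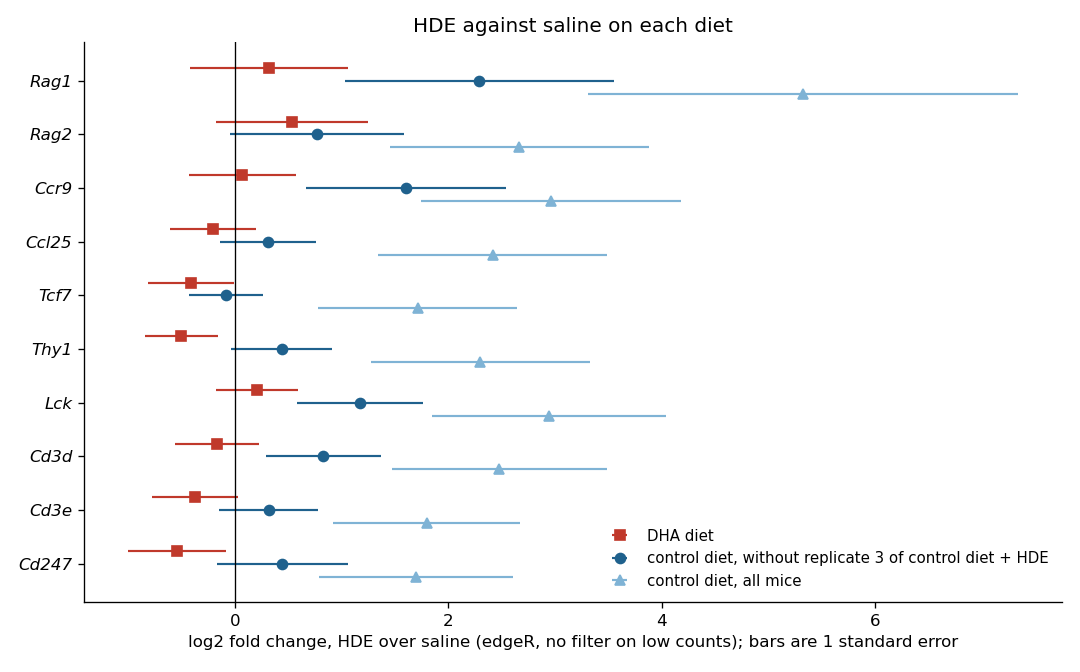
Log2 fold change of HDE over saline (linear axis, bars are 1 standard error) of the 10 genes by edgeR without the filter, on the DHA diet, on the control diet without replicate 3 of control diet + HDE, and on the control diet with all mice. On the DHA diet the points lie between -0.54 and 0.54, and with all mice of the control diet between 1.69 (Cd247) and 5.32 (Rag1).

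Between the diets after saline, a comparison that also leaves out the selected lung, 0% of 306 genes were called by edgeR, with 7 at an unadjusted p under 0.05, and DESeq2 and limma called 0. Of the 10 genes 3 were tested. Tcf7 averaged 158.4 ± 58.81 in DHA diet + saline lungs (SD, n = 3) and 204 ± 38.42 in control diet + saline lungs (SD, n = 4), which gave -0.35 on the log2 scale (standard error 0.28). Lck differed by 0.15 (standard error 0.31) and Thy1 by 0.12 (standard error 0.24), and the adjusted p was 0.988 by edgeR for each of the 3. For each of these genes the diets overlapped. With no filter 0 of the 10 genes were called, and their median was 0.18, beside 0.08 over all genes.

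Between the diets after HDE the values are again a description, because the control diet side holds the selected lung. Over all mice 0% of 363 genes were called by edgeR, with 18 at an unadjusted p under 0.05, and the 9 tested of the 10 genes lay between -1.66 for Cd247 and -5.33 for Rag1. Without replicate 3 of control diet + HDE 0% of 353 genes were called, with 3 at an unadjusted p under 0.05 and 0 called by DESeq2 or limma. The remaining log2 fold changes were -0.81 for Lck (standard error 0.49), -0.68 for Tcf7 (standard error 0.37) and -0.54 for Cd3d (standard error 0.44). Cd3d reached the filter only with replicate 2 in the fit, so its value is a description. With no filter Rag1 had -2.31 (standard error 0.88, adjusted p = 0.998 by edgeR), and the median of the 10 genes was -0.66, beside 0.08 over all genes, with 10 of the 10 below 0, 0 called and 2 at an unadjusted p under 0.05. These genes are not independent (median pairwise r 0.77 over 19 lungs). Replicate 2, the next highest lung for each, remained, so the count of signs is a description. Leaving out replicates 2, 3 and 4 gave 0.425 for Lck (standard error 0.38) and -0.14 for Tcf7. Without replicates 3 and 6, a choice made after seeing the data, 0% of 359 genes were called by edgeR. There 6 genes had an unadjusted p under 0.05, 3 of them among the 4 tested of the 10 genes. That count is a description, since the genes were selected as high in control diet + HDE and replicates 2 and 4 remained. The median of those 4 was -0.92. Without replicates 2, 3 and 4, 2 of the 10 genes reached the filter, and 0 had an unadjusted p under 0.05 by edgeR.

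The difference between the diets in the response to HDE, the diet by HDE interaction, was called for 0% of 358 genes over all mice and for 0% of 347 genes without replicate 3. At an unadjusted p under 0.05 there were 9 and 1 genes, and DESeq2 and limma called 0 in either. Over all mice the 8 tested of the 10 genes lay between -5.00 for Rag1 and -2.12 for Tcf7. Without that lung 2 were tested, Lck at -0.97 (standard error 0.72) and Tcf7 at -0.32 (standard error 0.55), and both values were within 2 standard errors of 0. Without replicates 3 and 6 of control diet + HDE, 0% of 350 genes were called. The median of the 4 tested of the 10 genes was then -1.16, with 1 at an unadjusted p under 0.05. Replicates 2 and 4 were still included, so these values are a description. The HDE responses of these genes on the DHA diet and on the control diet were thus not shown to differ.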

How the data were processed

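Left lung RNA of 20 mice was hybridized to the NanoString mouse Immunology panel (547 endogenous, 14 housekeeping, 8 negative and 6 positive control probes) and read on an nCounter Sprint profiler. The authors deposited raw counts per probe and lane with no background subtracted. The signal values they deposited as normalized counts are the raw counts times 1 factor per lane, set by Oaz1, Ppia, Rpl19 and Eef1g, and equal the scaled counts used here times 1.181. Scaling also multiplies the background of shallow lanes, so each count is read against its lane threshold.

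Counts were tested in R 4.3.3 with edgeR 4.0.16 (quasi-likelihood, Benjamini-Hochberg over all genes tested) on the housekeeping scale, for genes with a mean of at least 82 scaled counts over the mice of the comparison, a bound taken from the study's methods. Each comparison was fitted on its own mice. The interaction was fitted on all. Scripts were tested on simulated counts. Alternatives were TMM or all housekeeping probes for scaling, DESeq2 1.42.0, limma 3.58.1 on log2(deposited value + 1), no filter, subtraction of the lane threshold with a floor of 1, the run named in the sample titles as a block, a model of the 4 groups and each mouse left out. Each run alone, sets of control diet + HDE replicates left out, and all repeats without replicate 3 of that group were added after seeing the data.

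The genes and the 9 lists were chosen with earlier results of these data known. Named are the 10 genes, the 6 most alike over 20 and over 19 lungs, up to 4 most abundant genes per list and the scaling genes. Other list genes were named after their values were seen. Groups came from the sample labels, and replicates were numbered in accession order, so equal numbers pair nothing. The study ran in several experimental sets that the labels do not assign to mice, so p-values measure the spread between these mice. No pair of the 190 lane pairs matched within counting noise (lowest chi-square per degree of freedom 7.782). Of the 547 probe names 531 equaled a RefSeq symbol, with all 10 genes among them.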

Additional observations from a re-analysis of the deposited data

Results flagged for a closer look

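Within each group of 4 to 10 lungs the gap of the highest or the lowest lung to its neighbor, as a share of the range of the group, was compared with Dixon's 95% critical value, which chance passes in about 1 of 20 groups. Of 30 groups of values (10 genes in 3 groups) 11 passed, and 10 of these were the 10 genes in replicate 3 of control diet + HDE. The genes had been selected on that lung, so these passes are a description. The count of 11 is therefore not set against the chance rate. The shares in replicate 3 were 0.929 for Rag1, 0.827 for Rag2, 0.634 for Ccr9, 0.939 for Ccl25, 0.938 for Tcf7, 0.888 for Thy1, 0.835 for Lck, 0.83 for Cd3d, 0.86 for Cd3e and 0.712 for Cd247. The share was smallest for Ccr9, for which replicate 2 lay at 311.2 scaled counts and replicate 3 at 835.4.

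Replicate 4 of DHA diet + HDE passed as the highest lung of its group for Rag2, with a share of 0.691. Its 47.0 scaled counts came from 13 raw counts, below the threshold of 16.6 in its lane, and it had the largest scaling factor of all lanes, 3.612.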

How the results depend on the processing

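Calls among the 10 genes changed under few alternatives. On the DHA diet, HDE against saline, 0 became 1 (Tcf7) with DESeq2's own size factors and stayed 0 with any mouse left out (0 to 0). On the control diet with all mice, where most of the 9 genes were tested only because of the lung they were selected on and a call supports nothing, 0 became 4 with DESeq2 on the housekeeping scale, 2 with its own size factors, 6 in the model of the 4 groups and 1 (Lck) without replicates 3 and 6 of control diet + HDE, with a range of 0 to 4 when 1 mouse was left out, the 4 coming without replicate 6 of control diet + HDE. Without replicate 3 of control diet + HDE the range was 0 to 1, and 1 was called without replicates 3 and 6. Between the diets after HDE, which holds the same lung, 0 became 3 with DESeq2 on the housekeeping scale. Diet after saline, the interaction and the repeats of both diet comparisons without replicate 3 kept 0 (0 to 0 with a mouse left out). The sizes moved more than the calls. The median log2 fold change of the tested genes of the 10, on the control diet with all mice, was 2.42, but 0.96 with limma, 3.39 after background subtraction and 1.35 in run 1. Between the diets after HDE it was -2.47, but -1.06 with limma, -3.35 after subtraction and -1.35 in run 1. Without replicate 3 the control diet gave 0.63, but 0.09 with TMM, 0.12 with DESeq2's own size factors, 0.34 with limma, 1.01 after subtraction, 1.35 in run 1 and -0.14 in run 2.

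Counts over all genes depended more on the mice. On the DHA diet 113 genes were called, 58 to 132 with a mouse left out, 74 in run 1 and 31 in run 2, where DHA diet + saline is 1 lung assumed to vary like the other group. TMM split the calls into 105 higher and 24 lower and DESeq2's own size factors into 93 and 72, against 108 and 5, as the median log2 fold change of all genes moved to 0.11 and -0.11, against 0.50. On the control diet 55 were called over all mice, 104 and 91 by DESeq2 on the housekeeping scale and with its own size factors, 0 by limma, 88 in the model of the 4 groups, 101 in run 1, 0 in run 2, 162 without replicates 3 and 6, 0 without replicates 2, 3 and 4, and 0 to 156 with a mouse left out. Without replicate 3, 43 were called, and in the same order 99, 76, 0, 66, 101, 0, 162, 0 and 0 to 162. DESeq2's own size factors split the calls on the control diet into 67 higher and 24 lower, against 52 and 3. Between the diets after HDE, DESeq2 called 3. The cause was not tested.

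Pearson likeness over 20 lungs shared 2 of its 6 genes with Spearman likeness and 0 with either measure over 19 lungs. Rag1 and Rag2 were above background in 5 and 2 lungs, so their differences elsewhere are limited by depth, and groups of 3 and 4 saline mice limit the rest. No paired analysis was possible because the replicate numbers follow accession order and pair no mice.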
